A study of Mus musculus with 6 samples.

Results

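The melanocyte lineage and neural crest regulators examined here are 10 genes, taken by symbol from the 23951 genes of the expression table. They comprise 3 MiT family transcription factors (Mitf, Tfe3 and Tfeb), 5 other transcription factors of the neural crest and the pigment cell (Sox10, Sox9, Pax3, Tfap2a and Foxd3) and 2 surface receptors (Ngfr and Ednrb). Polyadenylated RNA was sequenced from 3 related mouse melanoma lines, with 2 libraries each and no treatment in any of them. B16-F1 is the parental line of low metastatic potential, bought from a repository (ATCC). B16-F1R2 came out of a lymph node metastasis and B16-F1R2L out of a lung metastasis that itself traces back to a lymph node metastasis, and both were obtained from another laboratory. The lines shared a culture medium with fetal bovine serum, and the labels give no genetic change or drug for any of them. Since both variants came from a source other than that of B16-F1, a difference of line and a difference of source cannot be told apart.

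Melanocytes arise from the neural crest, a migratory embryonic cell population that also gives Schwann cells. SOX10 and PAX3 switch on Mitf, and MITF in turn drives the enzymes and structural proteins of the pigment organelle, the melanosome. In melanoma, cells that lose this program and gain receptors such as NGFR or AXL are called dedifferentiated.

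FPKM (fragments per kilobase of transcript, relative to the mapped fragments of the library) is a level per transcript length, so that levels of different genes can be set side by side. The lines were compared on the log2(FPKM + 0.1) scale with limma, a linear model that shares the estimate of spread among genes, over the 11379 genes that reached 1 FPKM in 2 or more libraries. A gene is called higher or lower where the Benjamini-Hochberg adjusted p was under 0.05, and it is these calls that the words rose and fell refer to. For genes of low level, this scale gives a smaller change than the FPKM themselves. Whether both libraries of a line were separate cultures is not in the labels, so the p-values measure the spread between these libraries, which may be technical. For a single gene, an exact permutation test of 2 against 2 libraries could not go below p = 0.333. Depth was estimated from the lowest FPKM values at 12600000 to 14700000 reads per library. Only values that implied a depth within a fixed range were used, so the estimate could not leave that range. Reads per gene that rest on this depth are therefore rough. Within a line the libraries differed, as a median over genes, by 0.067 to 0.095 on the log2 scale.

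Of the 10 regulators, 8 passed the filter and 2, Ednrb and Foxd3, were not tested. In B16-F1R2 against B16-F1, 1 regulator rose and 6 fell, beside 28.2% of all tested genes called higher and 27.2% called lower. In B16-F1R2L against B16-F1, 2 rose and 5 fell, beside 29.5% higher and 27.1% lower over all genes. Between the variants, Mitf alone of the 8 was called by limma, higher in B16-F1R2L, beside 12.1% of all genes higher and 10.5% lower. At an unadjusted p under 0.05, 3 of the 8 were higher and 0 lower, beside 20.7% and 18.3% of all genes. The first 2 comparisons share the B16-F1 libraries, and a large part of all genes was called in each. The median log2 fold change of all tested genes was 0.0046, 0.017 and 0.022 in the 3 comparisons. Scaling every library to the same FPKM sum moved the median to 0.13 in both comparisons of B16-F1R2L. With that scaling 4253 genes were higher and 2092 lower in B16-F1R2L against B16-F1 (3361 and 3086 without it), and 2019 were higher and 484 lower between the variants (1378 and 1190 without it).

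**Figure D1:**
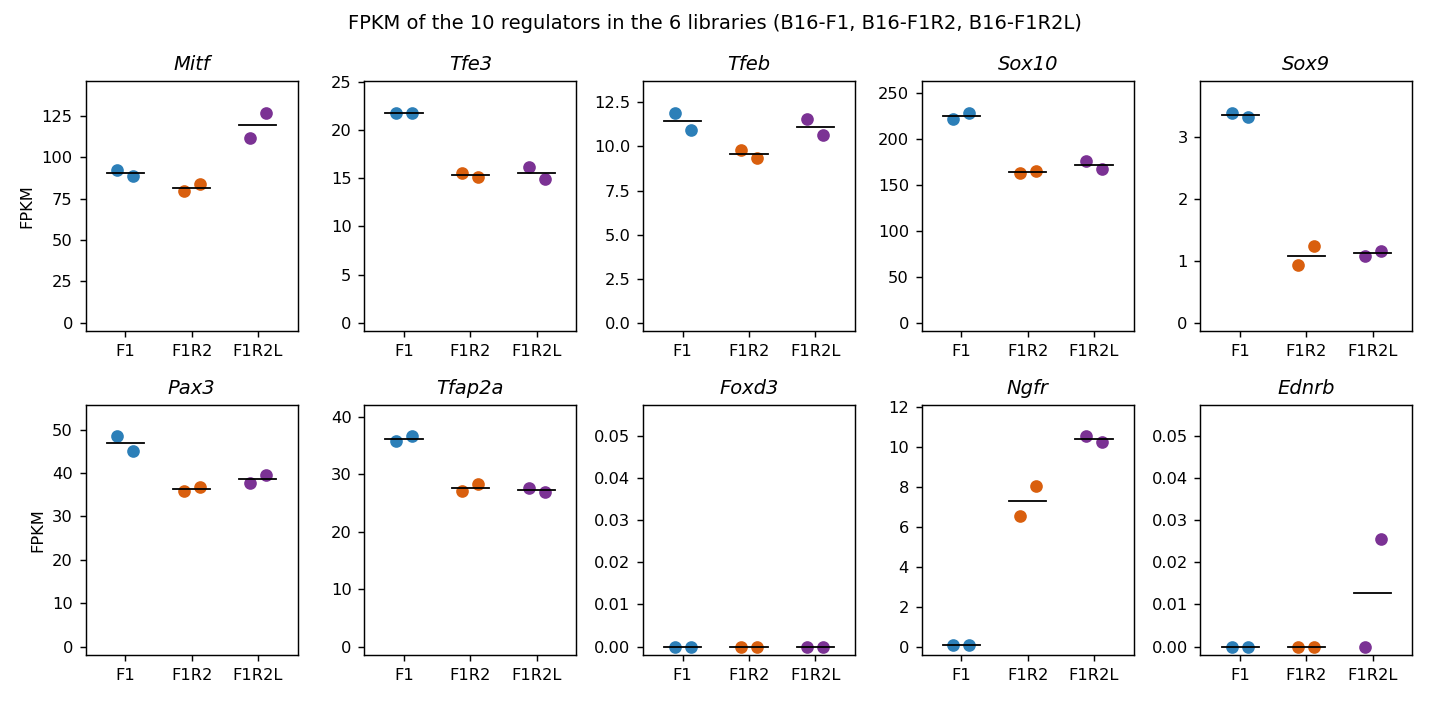
FPKM (vertical axes, each from about 0 and with its own range) of the 10 regulators in B16-F1, B16-F1R2 and B16-F1R2L; each point is 1 library and each bar the mean of 2. Ngfr stood under 0.1 FPKM in B16-F1 and above 6 FPKM in the other lines, Mitf was highest in B16-F1R2L, and Foxd3 was listed at 0 throughout.

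The promoters of 4 regulators are shown: Ngfr as the gene with the widest range, Mitf with the only called difference between the variants, and Foxd3 and Ednrb as the genes at or near 0. Each covers 250 bases before and 50 after a RefSeq transcript start (GRCm38.p6) and matched a single place in NCBIM37, the assembly that mm9 names. RefSeq promoters were matched for 7 of the 10 regulators (all but Sox10, Sox9 and Pax3), 13 in all. Capitals mark the motif matches of this search: TGACGTCA (the cyclic AMP response element), CACGTG (the E-box bound by MiT factors) and GCCNNNGGC (AP-2), on either strand and without overlap between matches.
Ngfr, chr11:95448963-95449262, minus strand: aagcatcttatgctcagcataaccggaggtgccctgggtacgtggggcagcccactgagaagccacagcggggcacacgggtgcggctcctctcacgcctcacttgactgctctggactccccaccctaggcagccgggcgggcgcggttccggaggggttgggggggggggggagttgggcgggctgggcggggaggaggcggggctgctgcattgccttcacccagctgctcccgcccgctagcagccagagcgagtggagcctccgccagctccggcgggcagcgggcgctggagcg
Mitf, the start furthest downstream, chr6:97941527-97941826, plus strand: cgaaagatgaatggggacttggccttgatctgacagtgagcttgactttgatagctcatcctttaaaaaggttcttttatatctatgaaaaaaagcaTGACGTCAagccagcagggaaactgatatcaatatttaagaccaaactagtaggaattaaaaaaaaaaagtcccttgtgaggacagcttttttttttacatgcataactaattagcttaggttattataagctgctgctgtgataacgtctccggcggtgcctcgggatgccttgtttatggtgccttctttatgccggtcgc
Foxd3, chr4:99322740-99323039, plus strand: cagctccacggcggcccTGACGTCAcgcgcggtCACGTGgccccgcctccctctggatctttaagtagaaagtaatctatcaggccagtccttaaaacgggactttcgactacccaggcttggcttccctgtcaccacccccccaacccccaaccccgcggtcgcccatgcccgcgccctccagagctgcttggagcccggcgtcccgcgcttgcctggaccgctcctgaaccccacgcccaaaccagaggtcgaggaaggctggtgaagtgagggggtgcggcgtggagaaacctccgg
Ednrb, chr14:104242869-104243168, minus strand: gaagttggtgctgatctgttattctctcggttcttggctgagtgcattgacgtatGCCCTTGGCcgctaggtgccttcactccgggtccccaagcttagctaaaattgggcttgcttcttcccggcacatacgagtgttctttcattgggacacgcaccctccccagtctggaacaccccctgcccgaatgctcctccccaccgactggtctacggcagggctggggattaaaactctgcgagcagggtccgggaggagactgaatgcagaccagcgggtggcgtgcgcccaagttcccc

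Ngfr and Foxd3 had promoters rich in CG pairs, with 23 and 25 in 300 bases, against a median of 7 over all 32851 promoters. Ednrb had 15 and the Mitf start shown, which lies inside the annotated gene, had 8. The other 2 Mitf starts, not shown, had 22 and 5 CG pairs, and the second of them held GCCNNNGGC 27 bases downstream. The cyclic AMP response element was found at the Mitf start shown, 153 bases upstream, and at Foxd3, 233 bases upstream, and 1.79% of all promoters held it; this motif was added to the search after the sequences had been read. Foxd3 also held CACGTG 217 bases upstream (7.15% of all promoters), and Ednrb held GCCNNNGGC 195 bases upstream (16.6%). The other motifs searched, CATGTG (the core of the M-box of pigment genes, 14.2% of all promoters) and ATTGTT (bound by SOX factors, 10.7%), were in none of the 13 promoters of the regulators. The Ngfr window held none of the 5 motifs. These matches describe the letters of the windows only.

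Mitf, the master transcription factor of the melanocyte, spans chr6:97757052-97971352 on the plus strand in NCBIM37, with 10 annotated transcripts. Each value is a sum over a whole culture, so fewer cells with a transcript cannot be told apart from less of it per cell. Its level was 92.3 and 88.7 FPKM in the libraries of B16-F1, 79.5 and 83.6 in those of B16-F1R2, and 112 and 127 in those of B16-F1R2L. Both B16-F1R2 libraries lay below both of B16-F1, and both B16-F1R2L libraries lay above all others. In B16-F1R2L Mitf rose against B16-F1 by 0.40 on the log2 scale (SE 0.068, limma adjusted p = 0.0032) and against B16-F1R2 by 0.55 (SE 0.068, 95% interval 0.38 to 0.71, adjusted p = 0.0066). In terms of mean FPKM this was 1.46 times the level of B16-F1R2. The difference of B16-F1R2 from B16-F1 was -0.15 with an interval from -0.31 to 0.014 and was not called (adjusted p = 0.106). With both B16-F1R2L libraries left out of the model the same difference passed the threshold (adjusted p = 0.036). Of 16 alternatives, 13 left it uncalled, among them quantile normalization (-0.11, adjusted p = 0.312). The 3 that called it left out only libraries of B16-F1R2L, which are not part of this comparison. Its value ran from -0.19 to -0.11 over the alternatives. The table gives 1 value for Mitf and does not part its isoforms.

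Tfe3, which binds the same E-boxes as MITF and is held in the cytoplasm in fed cells, had 21.8 and 21.8 FPKM in the libraries of B16-F1, 15.5 and 15.1 in those of B16-F1R2, and 16.1 and 14.9 in those of B16-F1R2L. Every library of the variants was below B16-F1, and the variants overlapped each other. It fell by 0.51 (SE 0.058, adjusted p = 5.8e-04) and by 0.49 (SE 0.058, adjusted p = 6.8e-04) on the log2 scale. Tfeb, the MiT factor best known for lysosome biogenesis, had 11.9 and 10.9 FPKM in the libraries of B16-F1, 9.81 and 9.37 in those of B16-F1R2, and 11.6 and 10.6 in those of B16-F1R2L. B16-F1R2L overlapped B16-F1 (log2 difference -0.04, interval -0.22 to 0.14, and 0.063 with libraries scaled to the same sum). B16-F1R2 lay below both other lines and fell by 0.25 against B16-F1 (SE 0.076, adjusted p = 0.0303), a call that was lost without the first B16-F1 library (adjusted p = 0.16) or without either B16-F1R2 library (0.068 and 0.13).

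Within the MiT family, Mitf held most of the summed FPKM: 73.3% and 73.0% in the libraries of B16-F1, 75.8% and 77.4% in those of B16-F1R2, and 80.1% and 83.2% in those of B16-F1R2L. The share of Tfe3 was 17.3% and 17.9% in B16-F1 and 11.6% and 9.78% in B16-F1R2L; shares of 1 sum are bound to each other, and the level of Tfe3 itself differed by 0.02 on the log2 scale between the variants. Tfec, the fourth member of the family, did not exceed 0.0443 FPKM in any library. The MiT family list thus had 3 of 4 genes tested. In B16-F1R2 against B16-F1, 2 were lower (median log2 fold change -0.25), beside 27.2% of all genes. In B16-F1R2L against B16-F1, 1 was higher and 1 lower (-0.04), beside 29.5% and 27.1% of all genes. Between the variants 1 was higher (0.21), beside 12.1% of all genes.

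Sox10, the neural crest factor that keeps melanocytes and Schwann cells specified, was the regulator with the highest level, at 221 and 228 FPKM in the libraries of B16-F1, 163 and 165 in those of B16-F1R2, and 176 and 167 in those of B16-F1R2L. All 4 variant libraries were below both B16-F1 libraries. Sox10 fell by 0.46 in B16-F1R2 (SE 0.045, limma adjusted p = 3.2e-04) and by 0.39 in B16-F1R2L (SE 0.045, adjusted p = 6.1e-04), and the variants differed by 0.06 (interval -0.046 to 0.17). Its gene lies at chr15:78985343-78994920 on the minus strand.

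Sox9, a relative of Sox10 that acts in cartilage, glia and hair follicles, was at the 9.53 percentile of mean level among the tested genes. It had 3.40 and 3.33 FPKM in the libraries of B16-F1, 0.930 and 1.24 in those of B16-F1R2, and 1.07 and 1.17 in those of B16-F1R2L. Both variants lay below B16-F1 without overlap and overlapped each other. Sox9 fell by 1.56 in B16-F1R2 (SE 0.17, adjusted p = 4.4e-04) and by 1.51 in B16-F1R2L (SE 0.17, adjusted p = 5.1e-04), and its mean FPKM was 3.11-fold lower in B16-F1R2 than in the parental line. The values of the variants rested on an estimated 52.7 to 74.6 reads per library, against 185 and 174 in B16-F1. The ratio of Sox10 to Sox9 FPKM was 65.2 and 68.6 in the libraries of B16-F1, 175 and 134 in those of B16-F1R2, and 164 and 143 in those of B16-F1R2L.

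Pax3, the paired-box factor that activates Mitf together with SOX10, had 48.5 and 45.2 FPKM in the libraries of B16-F1, 36.0 and 36.7 in those of B16-F1R2, and 37.8 and 39.6 in those of B16-F1R2L. It fell by 0.36 in B16-F1R2 (SE 0.053, adjusted p = 0.0015) and by 0.27 in B16-F1R2L (SE 0.053, adjusted p = 0.0050). The second of these calls was lost when every library was scaled to the same sum (log2 difference -0.17, adjusted p = 0.076). Tfap2a, the AP-2 factor of neural crest and skin, had 35.9 and 36.7 FPKM in the libraries of B16-F1, 27.1 and 28.3 in those of B16-F1R2, and 27.7 and 26.9 in those of B16-F1R2L. For both genes the variant libraries lay below B16-F1 without overlap. Tfap2a fell by 0.39 (SE 0.048, adjusted p = 7.9e-04) and by 0.41 (adjusted p = 6.3e-04), and the variants overlapped. Between the variants, the 95% intervals of the log2 difference were -0.35 to 0.46 for Sox9, -0.037 to 0.22 for Pax3, -0.13 to 0.095 for Tfap2a and -0.12 to 0.16 for Tfe3. An exon of the annotated gene Gm16989 overlaps Tfap2a.

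Foxd3, a repressor of Mitf that keeps neural crest cells undifferentiated, was listed at 0 FPKM in all 6 libraries. Its single exon overlaps an exon of another annotated gene (BX005053.1). It was not tested.

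**Figure D2:**
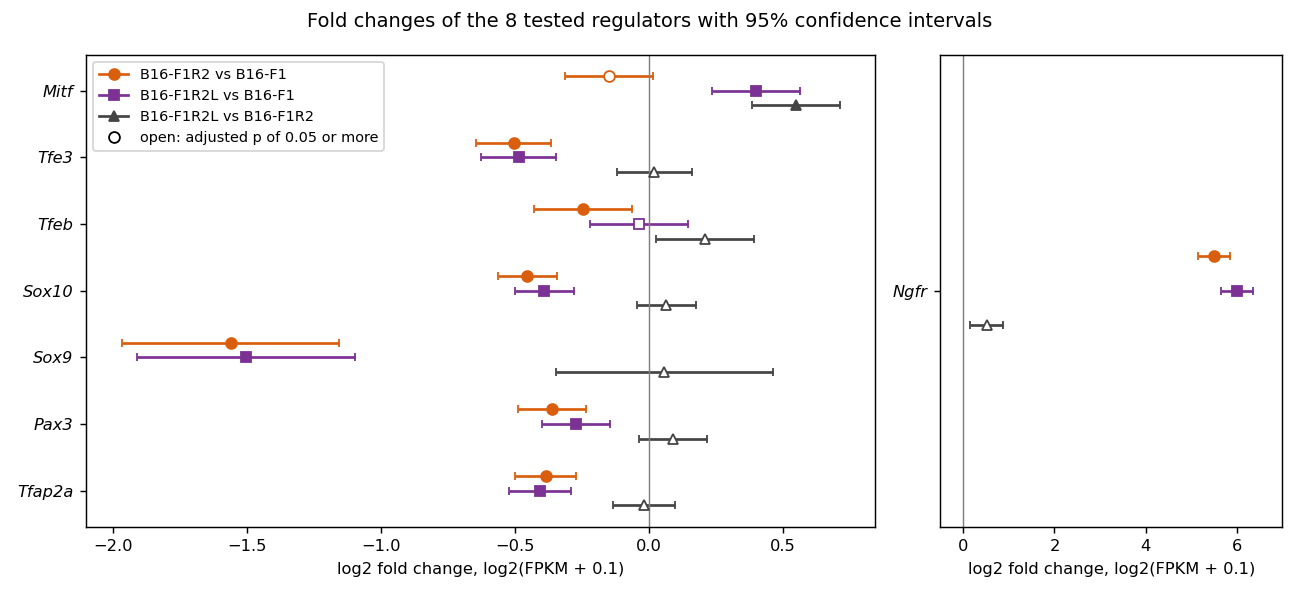
Log2 fold change on the log2(FPKM + 0.1) scale (horizontal axes) of the 8 tested regulators in the 3 comparisons, with 95% confidence intervals from limma; open points were not called and Ngfr has its own axis. Most regulators lay left of 0 in both comparisons with B16-F1, whereas Mitf in B16-F1R2L and Ngfr in both variants lay right of it.

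Ngfr encodes the low-affinity neurotrophin receptor p75, a surface marker of neural crest stem cells, Schwann cells and dedifferentiated melanoma. Its level was 0.0748 and 0.0526 FPKM in the libraries of B16-F1, 6.57 and 8.05 in those of B16-F1R2, and 10.5 and 10.3 in those of B16-F1R2L. B16-F1 stood near 0, at the worth of an estimated 3.4 and 2.28 reads, against 310 to 520 in the variant libraries. Ngfr rose by 5.50 on the log2 scale in B16-F1R2 (SE 0.15, adjusted p = 1.9e-06) and by 6.01 in B16-F1R2L (SE 0.15, adjusted p = 1.3e-06). It entered the test only through the variants, so that a difference had to appear, and the size of the fold depends on the pseudocount: it ran from 2.96 to 6.64 for B16-F1R2 and from 3.42 to 7.16 for B16-F1R2L with pseudocounts from 1 to 0.01. Both B16-F1R2L libraries were above both B16-F1R2 libraries, but the difference of 0.51 (interval 0.16 to 0.86) was not called (adjusted p = 0.0507). The gene has 1 annotated transcript with 6 exons on the minus strand at chr11:95430132-95449049.

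Ednrb, the endothelin receptor that melanoblasts need to survive and migrate, was listed at 0 in 5 libraries and at 0.0256 FPKM in the second B16-F1R2L library. This is the worth of about 1.5 reads, which does not tell the lines apart. The genes for its ligands, Edn1, Edn2 and Edn3, were listed at 0 in every library.

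The 3 genes nearest to Ngfr in their pattern over the 6 libraries, by the distance of centred log2 values, were Sec1, Mst1r and Plac8, at 0.300, 0.461 and 0.468. All 3 were listed at 0 in B16-F1. Mst1r, a receptor tyrosine kinase, reached 3.27 and 3.80 FPKM in the B16-F1R2 libraries and 5.48 and 6.96 in those of B16-F1R2L. Nearest to Sox9 were Pitpnc1, Ap1s2 and Fbrs, at distances of 0.121, 0.220 and 0.244. Pitpnc1, a lipid transfer protein, had 4.52 and 4.87 FPKM in the libraries of B16-F1, 1.38 and 1.74 in those of B16-F1R2, and 1.57 and 1.61 in those of B16-F1R2L, close to the shape of Sox9. These 6 genes were chosen for likeness over only 6 libraries, so the likeness is a description.

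A list of 21 genes that MITF is known to activate in pigment cells was set beside Mitf. In B16-F1R2 against B16-F1, 19 of these differentiation targets fell and 1 rose (median log2 fold change -1.16), and in B16-F1R2L 17 fell and 3 rose (median -0.86), where 27.2% and 27.1% of all genes were lower. The largest declines in B16-F1R2 were of Oca2 (-5.71), a melanosome transporter, Tyr (-3.70), the rate-limiting enzyme of melanin synthesis, Cited1 (-2.96), a transcriptional coregulator, and Met (-2.08), the hepatocyte growth factor receptor. Tyr was at 192 and 186 FPKM in the libraries of B16-F1, 14.7 and 14.2 in those of B16-F1R2, and 22.4 and 25.1 in those of B16-F1R2L. Its mean was thus 7.66% of the parental level in B16-F1R2 and 12.6% in B16-F1R2L, where Mitf stood at 90.1% and 132%. Ppargc1a, a regulator of mitochondrial biogenesis that is also an MITF target, rose in both variants, to 240% and 268% of B16-F1; it was named after its value was seen.

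Between the variants, most targets lay on the same side as Mitf. Of the 21 targets, 12 rose in B16-F1R2L against B16-F1R2 (12.1% of all genes) and none fell in limma (14 higher and 1 lower, Cited1, at an unadjusted p under 0.05, where all genes had 20.7% and 18.3%), with a median of 0.28, next to 0.55 for Mitf. Those with the largest rise were Oca2 (0.79), Tyr (0.71), Trpm1 (0.54), a cation channel of melanocytes, and Cdk2 (0.43), a cell cycle kinase. Oca2 remained low in both, at 0.567 and 0.469 FPKM in the B16-F1R2 libraries and 0.905 and 1.04 in those of B16-F1R2L, against 31.4 and 32.8 in B16-F1, and it entered the test only through B16-F1.

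**Figure D3:**
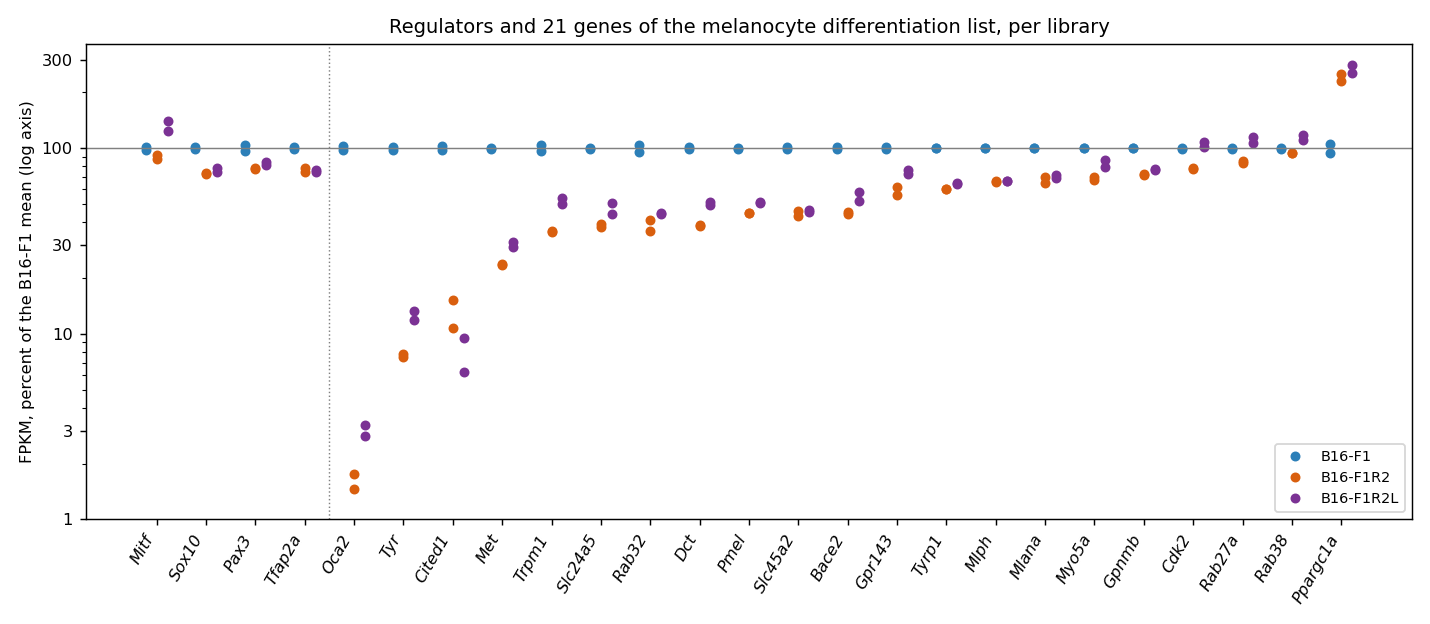
FPKM of 4 regulators (left of the dotted line) and the 21 differentiation targets in each library, in percent of the B16-F1 mean on a log axis; each point is 1 library. Mitf stood at 90.1% and 132% while Oca2 and Tyr stood at 1.61% and 7.66% in B16-F1R2 and at 3.02% and 12.6% in B16-F1R2L.

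The lysosomal genes of the CLEAR network, which TFEB and TFE3 activate, had 24 of 25 members tested. In B16-F1R2, 17 fell and 2 rose (median -0.44), and in B16-F1R2L 16 fell and 4 rose (median -0.35), beside 27.2% and 27.1% of all genes lower and 28.2% and 29.5% higher. Mcoln1, a lysosomal calcium channel, fell the most in both (-1.84 and -1.39), followed in B16-F1R2 by Naglu (-1.09), Ctsd (-0.99) and Tpp1 (-0.94), which are lysosomal hydrolases. Between the variants 9 rose and 1 fell (median 0.10), beside 12.1% and 10.5% of all genes, led by Naglu (0.79).

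Of the 12 genes of the machinery that ties MiT factors to nutrient supply, 2 rose and 5 fell in B16-F1R2 (median -0.11), 3 rose and 5 fell in B16-F1R2L (median -0.17), and 1 rose between the variants (median -0.05). With 28.2% and 29.5% of all genes higher and 27.2% and 27.1% lower against B16-F1, and 12.1% higher between the variants, these counts lay near the shares of all genes. Flcn, the folliculin tumor suppressor that lets the Rag GTPases restrain TFE3, fell in both (-0.56 and -0.60). Rragb, a Rag GTPase at 1.61 and 1.21 FPKM in B16-F1 and 2.16 to 2.92 in the variants, rose in both (0.90 and 0.63), the largest called change of the list in each. The gene that rose between the variants was Rragd (0.34), a Rag GTPase.

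Of 24 other neural crest factors, only 7 reached the filter and 5 were listed at 0 in all libraries, among them Twist1, Twist2 and Pax7. In B16-F1R2, 1 rose and 2 fell (median 0.07), in B16-F1R2L 3 rose and 1 fell (0.05), and between the variants 3 rose (0.09), counts to be read against the same shares of all genes. Myc rose by 1.11 and 1.12 in the variants. Snai2, a repressor used by migrating crest cells, fell by 1.16 in B16-F1R2 and was 0.89 higher in B16-F1R2L than in B16-F1R2. Sox6 fell in both variants (-0.66 and -0.57), and its partner Sox5 rose in B16-F1R2L by 0.68.

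Among the ligands, receptors and cofactors that work with Ngfr, Ednrb and Mitf, 9 of 20 were tested. Against B16-F1, 3 rose and 6 fell in B16-F1R2 (median -0.56), and 3 rose and 5 fell in B16-F1R2L (median -0.27). Over all genes 28.2% and 29.5% were higher, close to 3 of 9, and 27.2% and 27.1% lower. Between the variants 2 rose and 1 fell (median 0.08), beside 12.1% and 10.5% of all genes. Those that rose were Ntrk3 and Mc1r (0.58). Kit, the stem cell factor receptor of melanoblasts, fell (-2.13 and -1.78), and Erbb3, the neuregulin receptor of the Schwann and melanocyte lineages, fell as well (-1.65 and -1.86). Kit reached 1 FPKM in B16-F1 alone and entered the test only through that line. The neurotrophin receptor Ntrk3 was at 0.302 and 0.182 FPKM in the libraries of B16-F1, 0.606 and 0.463 in those of B16-F1R2, and 1.39 and 1.81 in those of B16-F1R2L. It rose by 2.32 in B16-F1R2L against B16-F1 and by 1.42 against B16-F1R2, but it passed the filter only through B16-F1R2L, so that a difference had to appear. The neurotrophin gene Ntf3 was listed at 0 in all libraries. Sort1, the sortilin coreceptor of p75 (named after its value was seen), fell in both variants (-1.25 and -1.16). Of the endothelin-converting enzymes, Ece2 had 9.06 and 8.25 FPKM in the libraries of B16-F1, 21.3 and 24.7 in those of B16-F1R2, and 16.03 and 15.18 in those of B16-F1R2L. It rose in both variants (1.40 and 0.84) and fell by 0.55 between them. Ece1 had 1.17 and 1.33 FPKM in the parental line and under 0.1 in every variant library, and it fell (-3.16 and -2.98). It entered the test only through B16-F1, so a fall had to appear, and its size rests on the pseudocount.

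The markers of the undifferentiated melanoma state gave no single direction. Of 20 listed genes 7 were tested and 4, including Wnt5a, were listed at 0 everywhere. In B16-F1R2, 3 rose and 2 fell (median 0.41), and in B16-F1R2L 2 rose and 3 fell (median -0.28). Of all genes, 28.2% and 29.5% were higher and 27.2% and 27.1% lower in these comparisons with B16-F1. Between the variants 1 rose and 4 fell (median -0.52), where 12.1% of all genes were higher and 10.5% lower. Axl, a receptor tyrosine kinase of that state, had 0.987 and 0.805 FPKM in the libraries of B16-F1, 5.20 and 5.07 in those of B16-F1R2, and 3.45 and 2.87 in those of B16-F1R2L. It rose by 2.40 and 1.71, having passed the filter only through the variants, and it fell by 0.69 between the variants, where Mitf rose.

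**Figure D4:**
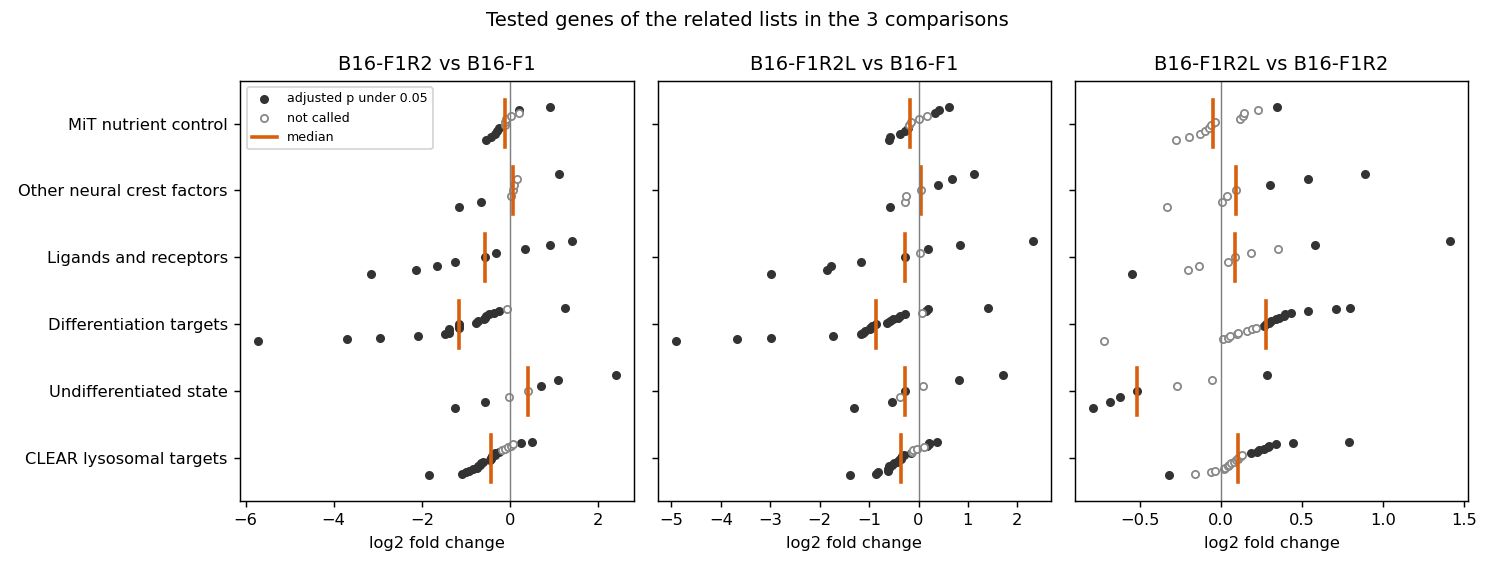
Log2 fold change on the log2(FPKM + 0.1) scale of every tested gene in 6 related lists, 1 panel per comparison with its own axis; filled points were called, open ones not, and orange bars are list medians. The differentiation targets had medians of -1.16 and -0.86 against B16-F1 and of 0.28 between the variants.

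The 6 melanocyte markers all fell against B16-F1 in both comparisons, beside 27.2% and 27.1% of all genes. Between the variants 2 rose, beside 12.1% of all genes. All 6 are also among the differentiation targets above, so these counts repeat values already given. The summed level of the 6 remained high, at 15024 and 15070 FPKM in the libraries of B16-F1. It was 8054 and 7821 in those of B16-F1R2, and 8819 and 8799 in those of B16-F1R2L. The 7 Schwann cell markers, 4 of them tested, bear on Ngfr and Sox10 since those genes are also glial. Their sum was 170 and 171 FPKM in the libraries of B16-F1, 633 and 631 in those of B16-F1R2, and 675 and 670 in those of B16-F1R2L. Mbp, a myelin protein gene, made up 95.6 and 94.6 FPKM of this sum in the parental line and 559 to 582 in the variants. In B16-F1R2, 2 rose and 2 fell, in B16-F1R2L 3 rose and 1 fell, and between the variants 1 rose. Of all genes, 28.2% and 29.5% were higher and 27.2% and 27.1% lower against B16-F1, and 12.1% were higher between the variants. Egr2, the transcription factor that drives myelination, was at most 0.0241 FPKM.

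The 7 fibroblast markers summed to 0.962 and 1.19 FPKM in the libraries of B16-F1. Their sum was 18.1 and 18.3 in those of B16-F1R2, and 4.67 and 4.49 in those of B16-F1R2L. The 2 tested, Col1a1 and Col1a2, rose against B16-F1, and between the variants 1 rose and 1 fell. Over all genes, 28.2% and 29.5% were higher against B16-F1, and between the variants 12.1% were higher and 10.5% lower. Both tested genes had passed the filter only through the variants, whereas Dcn, Lum and Thy1 were listed at 0. Most of the sum in B16-F1R2 was Col1a1, a collagen chain gene, at 16.8 and 17.1 FPKM (log2 fold change 5.54 against B16-F1), above Ngfr in those libraries. The 5 endothelial markers summed to 0.0875 and 0.144 in the parental line and to 1.87 to 3.41 in the variants, with Cdh5, Kdr and Tek at 0 and the 2 tested genes, Pecam1 and Vwf, higher in each variant than in B16-F1. These calls stand beside the same 28.2% and 29.5% of all genes higher. Neither gene reached 1 FPKM in B16-F1, and Pecam1 passed the filter only through B16-F1R2L. The 7 immune markers summed to between 1.02 and 2.85, with Ptprc, Cd3e and Itgam at 0, and the only one tested, Cd68, was not called (limma adjusted p = 0.974, 0.599 and 0.687). The 5 keratinocyte markers, none tested, summed to 0.281 to 0.540. The part of other cells in the Ngfr result was not tested further.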

How the data were processed

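The authors deposited 1 table of FPKM values for 6 libraries, all of whose columns name a sample. The submitters' processing notes name TopHat2 2.0.10, Bowtie 1.0.0, SAMtools 0.1.1.9, FastQC 0.10.1, Cuffnorm and DESeq2, and the build mm9; no read counts were used here, so no count model was run. How multiply mapped reads were shared is not given in the sources used here.

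FPKM were transformed as log2(FPKM + 0.1). The 11379 genes that reached 1 FPKM in 2 or more libraries were fitted by limma 3.58.1 under R 4.3.3 (functions lmFit and contrasts.fit, and eBayes with a trend) over all 6 libraries and without a replicate block, with Benjamini-Hochberg adjustment over all tested genes. The fit was tested on simulated data. Symbols and lists were chosen with earlier results of these data known. The text names all members, genes from among the 4 called ones with the largest absolute change per list and comparison, and the 3 genes nearest to each of the 2 members of widest range; others are said to have been named after their values were seen, or are genes listed at or near 0 or marker genes. Some genes of the lists are not reported here by name. Depth was estimated from the lowest values of genes with 1 transcript, kept only where they implied a depth within a fixed range. Positions came from NCBIM37 and its annotation, through RefSeq synonyms for Tfap2a, Tfe3 and Tfeb, and promoters from RefSeq. Alternatives were other pseudocounts, filters, eBayes with no trend, scalings, only the 4 libraries compared, a replicate block, and each library left out.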

Additional observations from a re-analysis of the deposited data

Results flagged for a closer look

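The change of Mitf against B16-F1 differed between the variants. Its log2 difference was -0.15 for B16-F1R2 and 0.40 for B16-F1R2L, and the difference, 0.547, passed the threshold in limma (adjusted p = 0.0066), with both B16-F1R2L libraries above both B16-F1R2 libraries. It kept its direction and call under every alternative run, with values from 0.46 to 0.66. Both changes are against the same B16-F1 libraries.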

How the results depend on the processing

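Of 381 values of the tested regulators under the alternatives, 356 kept direction and call, 4 lost a call, 9 gained one and 12 turned direction. The regulators called higher in B16-F1R2L against B16-F1R2 numbered 1, and 2 with a pseudocount of 1, 3 with libraries scaled to the same sum, 2 with only the 4 libraries compared, and 1 to 2 when each library was left out. The additions were Ngfr (adjusted p = 0.022 with a pseudocount of 1, 0.029 with 4 libraries, and 0.048 and 0.046 without the first or second B16-F1 library), Sox10 and Tfeb (0.043 and 0.036 with scaling to the same sum). No value that turned was called. Tfeb in B16-F1R2L against B16-F1 was 0.063 with scaling to the same sum and -0.10 to 0.023 with a library left out. Between the variants, Sox9 was -0.33 after quantile normalization and -0.13 to 0.24 with a library left out, Tfap2a was 0.088 with scaling and -0.053 to 0.013, and Tfe3 was -0.0014 by median ratios, -0.034 by quantiles and -0.037 to 0.075. Mitf in B16-F1R2 against B16-F1 was called with only 4 libraries and without either B16-F1R2L library. With a filter of 5 FPKM, Sox9 was not tested. Of all genes, 1378 were higher and 1190 lower between the variants; 2019 were higher and 484 lower with scaling to the same sum, 743 were lower without a filter and 650 without a trend, 317 were higher and 155 lower without the first B16-F1R2 library, 654 and 631 without the second, 362 and 243 without the second B16-F1R2L library, and 752 and 782 were lower without the first or the second B16-F1 library. Same-numbered libraries did not deviate together (correlations 0.052, -0.10 and 0.079), so the numbers do not pair them; with the replicate block, Mitf between the variants was 0.55 (adjusted p = 0.0108) and no regulator's call changed. Depth limits Ngfr in B16-F1, Ednrb and Foxd3. The causes were not tested.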

Other observations

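Below the filter, and named after their values were seen, 2 further pigment cell factors stood apart in B16-F1. Pou3f2, the POU factor BRN2 of less differentiated melanoma cells, had 0.569 and 0.692 FPKM in B16-F1 and was listed at 0 in the other 4 libraries. Irf4, a factor that acts with MITF on Tyr, had 0.249 and 0.243 FPKM in the libraries of B16-F1, 0.0299 and 0.0286 in those of B16-F1R2, and 0.0937 and 0.0993 in those of B16-F1R2L. Neither was tested.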
